A study of Mus musculus with 17 samples.

Results

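The megalin-cubilin endocytosis genes are 8 genes chosen by name for the work they do in taking up filtered protein: Lrp2, Cubn, Amn, Dab2, Clcn5, Ocrl, Lrpap1 and Fcgrt. All 8 were found by symbol among the 42794 complete gene lines of the deposited table, and all 8 were among the 13279 genes tested. RNA from whole mouse kidney was sequenced in 17 libraries, to ask how loss of the glucagon receptor Gcgr from proximal tubule cells alters gene expression in diabetic kidney disease. The 7 libraries titled DKD_shRNA carry the genotype Gcgr shRNA, a hairpin meant for proximal tubule epithelial cells. The 6 libraries titled DKD_Vehicle carry the genotype Ctr shRNA, and title and genotype leave the control treatment of these kidneys unclear. The 4 libraries titled NC are wild type (WT). The sources used here give neither strain, age nor sex, nor how diabetic kidney disease (DKD) was induced or the hairpin delivered. No label links a library to one animal, so the p-values reflect only how these samples vary, which may be technical.

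Proximal tubule cells recover the albumin, hormones and vitamin carriers that pass the glomerular filter. Megalin (Lrp2), a giant member of the low-density lipoprotein (LDL) receptor family, and cubilin (Cubn), which has no membrane anchor of its own and is held and carried by amnionless (Amn), bind these proteins at the brush border. Dab2 links the tails of the receptors to clathrin, the chaperone RAP (Lrpap1) keeps megalin free of ligand while it folds, the exchanger ClC-5 (Clcn5) helps to acidify endosomes, the phosphatase OCRL (Ocrl) turns over endosomal phosphoinositides, and the Fc receptor FcRn (Fcgrt) salvages albumin and immunoglobulin G. Inherited loss of several of these genes in humans, as in Dent disease (CLCN5) and Lowe syndrome (OCRL), leads to loss of small proteins in the urine.

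Each library held 13997657 to 17107876 reads, recovered from the deposited FPKM, and 12183 to 12919 genes reached 1 FPKM. FPKM is a read count scaled by gene length and by a size for each library. That size was not the plain read total. It ran from 0.949 times the recovered reads in DKD_shRNA 32 to 1.15 times in DKD_Vehicle 20. The alternatives with equal FPKM sums and with voom on the recovered reads use other sizes. Gcgr, the gene aimed at, averaged less in DKD_Vehicle than in the libraries labelled DKD_shRNA, with overlap between the groups. That difference did not pass (limma, adjusted p = 0.413). Both groups were below NC (limma, adjusted p = 0.000437 for DKD_Vehicle and 0.0238 for DKD_shRNA), and the DKD_shRNA call was lost in 5 of 29 alternatives. Gcgr averaged 13.02 ± 1.70 FPKM in DKD_shRNA (SD, n = 7), 9.74 ± 2.14 FPKM in DKD_Vehicle (n = 6) and 20.8 ± 2.42 FPKM in NC (n = 4). Differences between DKD_shRNA and DKD_Vehicle below are therefore between libraries with these labels. Of the marker sums, DKD_Vehicle 20 stood apart with 691 FPKM of fat cell markers and 321 FPKM of urothelial markers. In DKD_shRNA these were at most 47.5 FPKM and 16.4 FPKM. DKD_Vehicle 20 also had 1029 FPKM of principal cell markers, against at most 395 FPKM in DKD_shRNA and 493 FPKM in NC. The markers of the proximal tubule, where these genes act, were abundant throughout, with sums of 5327 to 7182 FPKM in DKD_shRNA, 4454 to 6833 FPKM in DKD_Vehicle and 7456 to 8637 FPKM in NC, and none of the 21 found was at 0 in all libraries. Fewer cells of a type and less RNA per cell cannot be told apart in RNA of whole kidney.

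The starts of the receptor genes and of B2m, the light chain of FcRn, are shown because Cubn was the 1 gene of the 8 to pass a test, Amn and Lrp2 are its partners, and B2m rose. The sequences are from RefSeq, on build GRCm38.p6, each written 5′ to 3′ on the strand of its gene, and each is the part of the bases before the RefSeq start that lies outside the gene as annotated in the files' build. Capitals mark matches, on either strand, to the GC box GGGCGG, the CCAAT box, the TATA box TATAAA, the E box CACGTG or an interferon response element, which is GAAA, any 2 bases and GAAA. None of the marked matches overlapped another.
Lrp2, chr2:69586066-69586279, minus strand: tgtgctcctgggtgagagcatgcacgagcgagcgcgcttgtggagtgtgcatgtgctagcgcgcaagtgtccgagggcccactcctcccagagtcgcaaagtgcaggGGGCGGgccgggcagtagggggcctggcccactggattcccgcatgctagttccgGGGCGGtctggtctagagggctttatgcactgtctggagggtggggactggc
Cubn, chr2:13491877-13492126, minus strand: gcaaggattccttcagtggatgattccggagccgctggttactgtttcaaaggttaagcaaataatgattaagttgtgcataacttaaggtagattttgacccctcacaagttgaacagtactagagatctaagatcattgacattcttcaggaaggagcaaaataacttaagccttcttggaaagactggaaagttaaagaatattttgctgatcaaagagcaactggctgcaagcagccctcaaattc
Amn, chr12:111270846-111271094, plus strand: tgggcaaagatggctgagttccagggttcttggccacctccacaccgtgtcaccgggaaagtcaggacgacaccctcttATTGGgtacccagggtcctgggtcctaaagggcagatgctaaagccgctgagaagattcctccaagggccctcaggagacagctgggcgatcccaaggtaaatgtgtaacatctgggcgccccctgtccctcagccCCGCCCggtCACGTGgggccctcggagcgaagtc
B2m, chr2:122147437-122147685, plus strand: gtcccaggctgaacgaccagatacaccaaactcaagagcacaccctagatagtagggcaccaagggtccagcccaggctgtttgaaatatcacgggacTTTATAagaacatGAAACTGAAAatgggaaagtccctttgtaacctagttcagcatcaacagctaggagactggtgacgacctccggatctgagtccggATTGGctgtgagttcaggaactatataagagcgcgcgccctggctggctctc
Over the 250 bases before the RefSeq start, G and C made up 66.4% for Lrp2, 39.6% for Cubn and 61.2% for Amn. The Lrp2 window held a pair of GC boxes, 143 and 88 bases before the start, and the Amn window a CCAAT box, a GC box and an E box. The Cubn window held no match to these motifs, nor to the nuclear receptor core AGGTCA. Among all 32851 RefSeq windows of this length, 32.7% held a GC box, 33.8% a CCAAT box, 12.4% a TATA box, 6.02% an E box, 14.0% the nuclear receptor core and 2.98% the interferon response element, which B2m has 139 bases before its start. The matches describe the letters only.

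In FPKM, which is per length, the genes fell into a tier of abundant and a tier of scarcer transcripts. Over all 17 libraries the mean was 156 FPKM for Fcgrt, 140.0 FPKM for Amn, 116 FPKM for Lrpap1 and 107 FPKM for Lrp2. Neighbours in this order overlapped in range over the libraries. Dab2 followed at 52.2 FPKM, Cubn at 25.5 FPKM, Clcn5 at 10.02 FPKM and Ocrl at 1.999 FPKM, and from Lrp2 downward the ranges of neighbours did not overlap. Cubn, with 4608 to 7958 recovered reads per library, and Lrp2, with 21797 to 36289, were far above counting error, whereas Ocrl rested on 203 to 372 reads.

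**Figure D1:**
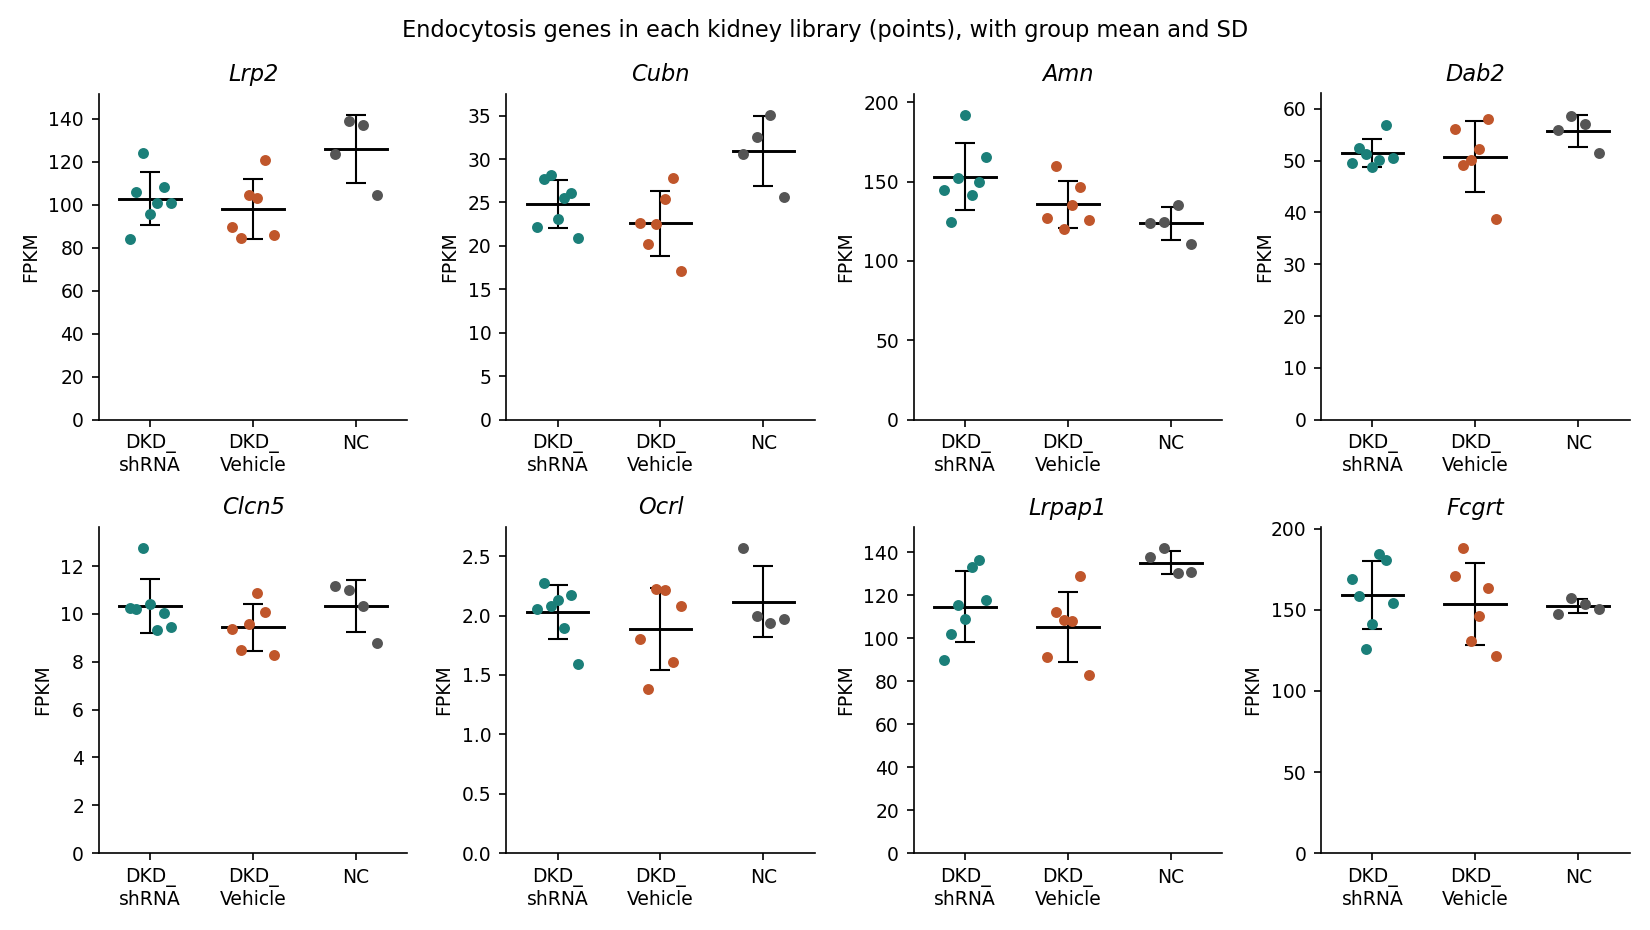
FPKM of the 8 genes in each library (points), with the group mean (line) and SD (bar), on linear axes that start at 0. Cubn, Lrp2 and Lrpap1 lay lowest in DKD_Vehicle and highest in NC on average, whereas Amn was highest in DKD_shRNA.

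Set against NC, Cubn was lower in DKD_Vehicle and the other 7 genes did not pass the test. The Cubn call was lost in 9 of 29 alternatives. Cubn fell by 26.4% on the log2(FPKM + 1) scale, a log2 fold change of -0.44. The receptor Lrp2 and the chaperone Lrpap1 were not far from it, at -0.36 and -0.37, with limma adjusted p-values of 0.0693 and 0.0749. With limma and Benjamini-Hochberg adjustment over all tested genes, 1 of the 8 genes passed an adjusted p of 0.05, against 7.49% of all tested genes. It was lower, as were 3.91% of all tested genes. A count of 1 in 8 is near these shares and says little about the 8 genes as a set. Of the 8 log2 fold changes 7 were below 0, with a median of -0.13 beside 0.0071 over all genes tested, of which 48.5% were below 0. That share grew with gene length, from 39.3% below 2000 bases to 57.8% at 5000 to 10000 bases and 66.8% above. Dab2 and Ocrl lie in the second of these classes and Lrp2, Cubn and Clcn5 in the last.

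Megalin, Lrp2 (ENSMUSG00000027070, GRCm38 chromosome 2, 69424340 to 69586065, minus strand), had 84.4, 96.3 and 121 FPKM as lowest, median and highest value in DKD_Vehicle, against 124, 139, 137 and 105 FPKM in NC. In DKD_shRNA the same 3 values were 84.0, 101 and 124 FPKM. NC 41 was the lowest NC library, and 5 of the 6 DKD_Vehicle libraries were below it. NC 37 was just below the highest DKD_shRNA library and above all 6 DKD_Vehicle libraries. The means were 98.0 ± 14.0 FPKM in DKD_Vehicle and 126 ± 15.8 FPKM in NC (SD, n = 6 and 4). The log2 fold change was -0.36 ± 0.12 (SE), with an adjusted p of 0.0693 by limma. Without DKD_Vehicle 19, the highest of its group, or without NC 41 it passed, with adjusted p-values of 0.0262 and 0.0397. With library weights it also passed (adjusted p = 0.0277).

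Cubilin, Cubn (ENSMUSG00000026726, chromosome 2, 13276338 to 13491813, minus strand), had 17.1, 22.6 and 27.8 FPKM as lowest, median and highest value in DKD_Vehicle, against 30.6, 32.5, 35.1 and 25.6 FPKM in NC. In DKD_shRNA these were 21.0, 25.5 and 28.1 FPKM. For Cubn, NC 41 was the only NC library within the range of the DKD libraries, and DKD_Vehicle 20 was the lowest of all. Cubn averaged 22.6 ± 3.75 FPKM in DKD_Vehicle and 30.9 ± 3.996 FPKM in NC, a log2 fold change of -0.44 ± 0.12 (limma, adjusted p = 0.0335). The call was lost without DKD_Vehicle 1, 4 or 6 or NC 37, 38 or 39, with adjusted p-values of 0.0503 to 0.124, and the log2 fold change then stayed between -0.45 and -0.38. Without DKD_Vehicle 20 and DKD_shRNA 31, the second of which was picked with earlier results of these data known, the log2 fold change was -0.37 and the adjusted p 0.0519. Whether strand was used in counting is not stated in the sources at hand, so reads of Cubn and of Gm13270, which overlaps it on the opposite strand, cannot be told apart. The same holds for Dab2 with Gm16311 and the pseudogene Gm18888, Clcn5 with the small RNA gene Gm26401, Fcgrt with Gm45669, B2m with Patl2 and Gcgr with Gm11789.

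Amnionless, Amn (ENSMUSG00000021278, chromosome 12, 111271095 to 111276426, plus strand), the partner that anchors cubilin, was the 1 gene with a positive log2 fold change in DKD_Vehicle against NC. It had 120.3, 131 and 159.7 FPKM as lowest, median and highest value in DKD_Vehicle, against 124, 125, 135 and 110.5 FPKM in NC. In DKD_shRNA these were 125, 150.02 and 192 FPKM, so that 6 of 7 DKD_shRNA libraries were above the highest NC library. The group means were 153 ± 21.2 FPKM in DKD_shRNA, 136 ± 14.8 FPKM in DKD_Vehicle and 124 ± 10.2 FPKM in NC. Amn did not pass in DKD_Vehicle against NC (log2 fold change 0.13 ± 0.11, adjusted p = 0.503) or in DKD_shRNA against NC (0.30 ± 0.10, adjusted p = 0.167).

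Dab2 (ENSMUSG00000022150, chromosome 15, 6299788 to 6440712, plus strand), the clathrin adaptor, had 38.7, 51.2 and 58.0 FPKM as lowest, median and highest value in DKD_Vehicle, against 55.8, 58.7, 57.0 and 51.4 FPKM in NC. The groups overlapped, and the lowest value was again that of DKD_Vehicle 20. The log2 fold change was -0.14 ± 0.091, with an adjusted p of 0.367.

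Lrpap1 (ENSMUSG00000029103, chromosome 5, 35091501 to 35105766, minus strand), the RAP chaperone of megalin, had 82.9, 108 and 129 FPKM as lowest, median and highest value in DKD_Vehicle, against 138, 142, 130.3 and 131 FPKM in NC. Every DKD_Vehicle library was below every NC library, as was so for 1 of the 8 genes and for 5.41% of all tested genes (10.1% in either direction). In DKD_shRNA the values were 89.7, 115 and 136 FPKM, and the 2 highest libraries reached the NC range. Between DKD_Vehicle and NC the log2 fold change was -0.37 ± 0.12, with an adjusted p of 0.0749. It passed in 4 of 29 alternatives. These were without DKD_Vehicle 19 (adjusted p of 0.0313), with equal FPKM sums (0.0173), with library weights (0.0238) and with voom on the recovered reads (0.0258).

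The endosomal genes Clcn5 and Ocrl did not pass in DKD_Vehicle against NC. In DKD_shRNA they averaged 10.3 ± 1.13 and 2.03 ± 0.226 FPKM. Clcn5 (ENSMUSG00000004317, chromosome X, 7153810 to 7319358, minus strand) had 8.29, 9.46 and 10.9 FPKM as lowest, median and highest value in DKD_Vehicle, against 11.2, 10.98, 10.3 and 8.77 FPKM in NC. Ocrl (ENSMUSG00000001173, chromosome X, 47912387 to 47965868, plus strand) had 1.38, 1.94 and 2.22 FPKM in DKD_Vehicle, against 2.57, 1.996, 1.94 and 1.97 FPKM in NC. The ranges of both genes overlapped between the groups. Their log2 fold changes were -0.12 ± 0.089 for Clcn5 and -0.11 ± 0.097 for Ocrl, with adjusted p-values of 0.462 and 0.517. The 95% intervals were -0.30 to 0.072 for Clcn5 and -0.32 to 0.091 for Ocrl.

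Fcgrt (ENSMUSG00000003420, chromosome 7, 45092990 to 45103851, minus strand), the heavy chain of FcRn, had 122, 155 and 188 FPKM as lowest, median and highest value in DKD_Vehicle, against 148, 157, 154 and 150.5 FPKM in NC. The NC libraries sat inside the wider range of DKD_Vehicle. The log2 fold change was -0.0033 ± 0.12, with an adjusted p of 0.992 and a 95% interval of -0.26 to 0.25. Fcgrt is also made by endothelium, podocytes and macrophages, of whose markers 0 of 8, 0 of 7 and 3 of 8 tested passed in this comparison, with the macrophage genes Lyz2 and Cd68 higher and Csf1r lower. Their part in the Fcgrt level was not tested.

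Between DKD_shRNA and DKD_Vehicle none of the 8 genes passed, nor did any of the 13279 genes tested (0%) by limma, or by limma voom on the recovered reads. At an unadjusted p under 0.05 there were 972 genes (7.32%) and 0 of the 8. The 8 log2 fold changes were all above 0, from 0.027 for Dab2 to 0.17 for Amn, with a median of 0.097 beside -0.0043 over all genes tested, of which 51.5% were below 0. No gene of the 8 had groups without overlap, as did 0.203% of all tested genes. The Dab2 value turned to -0.016 with equal FPKM sums and kept its sign, at 0.027, with equal medians. Cubn averaged 24.8 ± 2.76 FPKM in DKD_shRNA and 22.6 ± 3.75 FPKM in DKD_Vehicle, a log2 fold change of 0.14 with a 95% interval of -0.082 to 0.36. Lrp2 averaged 103 ± 12.2 FPKM in DKD_shRNA and 98.0 ± 14.0 FPKM in DKD_Vehicle, a log2 fold change of 0.072 with an interval of -0.14 to 0.29.

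In DKD_shRNA against NC none of the 8 genes passed either, against 2.02% of all tested genes, and none had groups without overlap, against 5.54%. Of the 8 log2 fold changes 5 were below 0, as were 51.2% of all, from 39.3% of genes below 2000 bases to 73.1% at 10000 bases or more. Cubn averaged 24.8 ± 2.76 FPKM in DKD_shRNA and 30.9 ± 3.996 FPKM in NC, with a log2 fold change of -0.31 ± 0.12 (adjusted p = 0.203). Lrp2 averaged 103 ± 12.2 FPKM in DKD_shRNA and 126 ± 15.8 FPKM in NC, with -0.29 ± 0.11 (adjusted p = 0.214), and Lrpap1 had -0.25 ± 0.12 (adjusted p = 0.317). Amn, Cubn and Lrp2 had unadjusted p-values under 0.05, as did 16.2% of all tested genes. Both comparisons with NC share the 4 NC libraries, so their values are not independent.

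**Figure D2:**
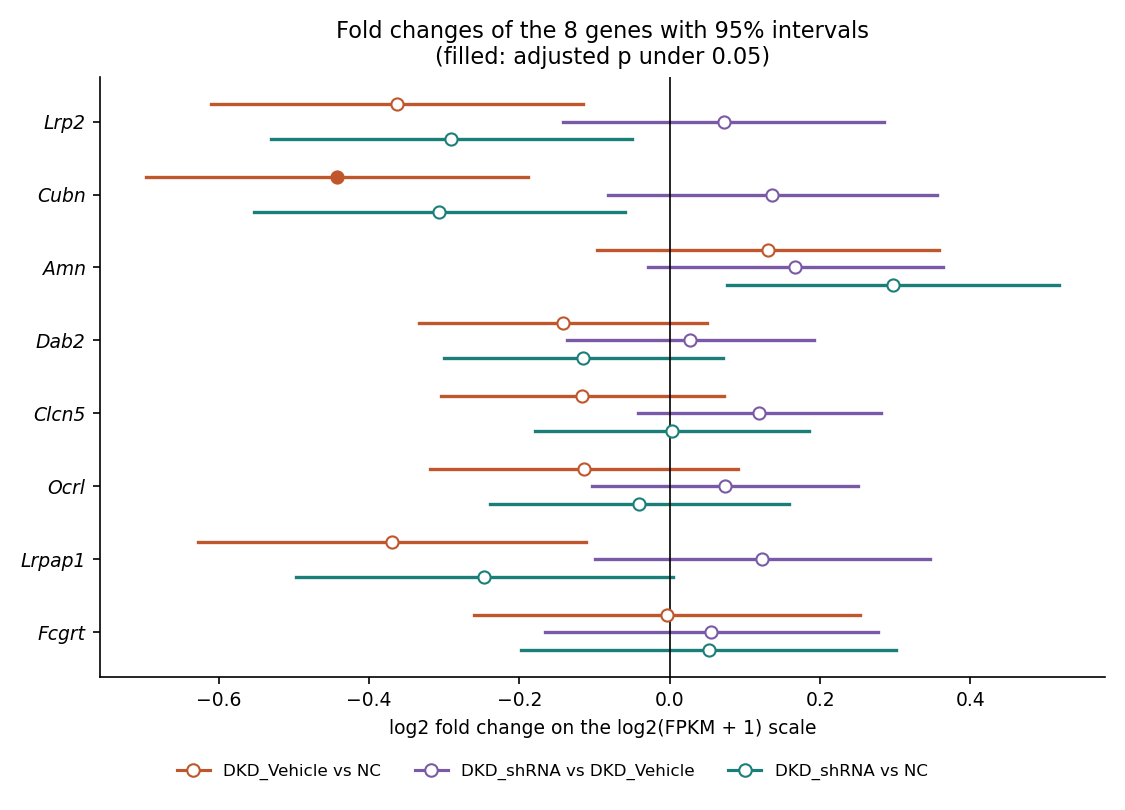
Fitted log2 fold changes on the log2(FPKM + 1) scale with 95% intervals for the 8 genes in the 3 comparisons, filled where the adjusted p is under 0.05. Only Cubn in DKD_Vehicle against NC is filled, at -0.44, and Amn is the gene with positive values in all 3 comparisons.

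Because cubilin reaches the membrane with amnionless, their balance within each library was compared. The Amn to Cubn ratio of FPKM had 4.51, 5.75 and 8.31 as lowest, median and highest value in DKD_shRNA and 5.26, 5.48 and 7.90 in DKD_Vehicle, against 4.06, 3.83, 3.86 and 4.31 in NC. Every DKD library was above every NC library. The difference of log2(FPKM + 1) values was 0.57 higher in DKD_Vehicle than in NC, with an exact two-sided permutation p of 0.00476, the smallest that 210 splits allow, and an adjusted p of 0.0238 over 15 ratio tests. It was 0.60 higher in DKD_shRNA than in NC (exact permutation p = 0.0121, adjusted p = 0.0455). Cubn itself had log2 fold changes against NC of -0.44 in DKD_Vehicle and -0.31 in DKD_shRNA, and Amn of 0.13 and 0.30. In DKD_Vehicle the ratio therefore largely restates the Cubn fall and is no separate test of it. Relative to the mean of other proximal tubule markers, Amn was higher by similar amounts, 0.59 and 0.63, so the difference is not particular to Cubn. DKD_shRNA and DKD_Vehicle averaged 6.28 ± 1.38 and 6.13 ± 1.18, and their difference of 0.030 did not pass (adjusted exact permutation p = 0.915).

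With any 1 NC library left out, the difference was 0.55 to 0.61 for DKD_Vehicle and 0.58 to 0.64 for DKD_shRNA against NC. The exact test of DKD_Vehicle against NC then has 84 splits and stayed at its smallest p, 0.0119. Its adjusted exact permutation p of 0.0595 therefore says little about stability. For DKD_shRNA against NC, 120 splits allow 0.00833, but the exact p was 0.0167, with an adjusted p of 0.0625. Without DKD_Vehicle 1, DKD_Vehicle against NC was at 0.00794, the smallest exact p of 126 splits, with an adjusted p of 0.0595. Without any other single DKD_Vehicle library that comparison had the same exact p and passed, with an adjusted p of 0.0397. For DKD_shRNA against NC the adjusted exact permutation p exceeded 0.05 without DKD_shRNA 13, 29, 31, 32, 34 or 35, at 0.0536 to 0.0714, with a difference of 0.53 to 0.63. DKD_Vehicle 1 is not part of this comparison. Leaving it out kept the difference and the exact p of DKD_shRNA against NC and moved only the adjusted p, to 0.0595. Without DKD_Vehicle 20 and DKD_shRNA 31 together, DKD_shRNA against NC had a difference of 0.53 and an adjusted p of 0.0536.

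FcRn needs the light chain beta-2-microglobulin (B2m), which it shares with class I histocompatibility molecules. B2m had 323, 388 and 548 FPKM as lowest, median and highest value in DKD_shRNA and 312, 459 and 576 FPKM in DKD_Vehicle, against 170.3, 175, 155 and 185 FPKM in NC. It rose in DKD_Vehicle against NC by 1.36 ± 0.16 on the log2 scale (limma, adjusted p = 0.000122) and in DKD_shRNA against NC by 1.25 ± 0.16 (adjusted p = 0.000274). Fcgrt did not follow, so the Fcgrt to B2m ratio of FPKM was 0.394 ± 0.0818 in DKD_shRNA and 0.357 ± 0.108 in DKD_Vehicle, against 0.893 ± 0.0759 in NC, with no overlap between DKD and NC libraries. Fcgrt itself had log2 fold changes against NC of 0.052 in DKD_shRNA and -0.0033 in DKD_Vehicle. The ratio therefore restates the B2m rise and is no separate test of Fcgrt. The log2 differences from NC were -1.19 in DKD_shRNA and -1.37 in DKD_Vehicle, each with an adjusted exact permutation p of 0.0238. With any 1 NC library left out they were -1.24 to -1.14 in DKD_shRNA and -1.41 to -1.32 in DKD_Vehicle, each at the smallest p its splits allow. Without DKD_Vehicle 1 the DKD_Vehicle difference was -1.44, with an adjusted exact permutation p of 0.0595.

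The other 3 partner ratios did not pass in any comparison. Lrpap1 to Lrp2, the chaperone to its receptor, was 1.12 ± 0.143 in DKD_shRNA, 1.08 ± 0.129 in DKD_Vehicle and 1.08 ± 0.129 in NC. Lrp2 to Cubn, the 2 receptors, was 4.16 ± 0.363 in DKD_shRNA, 4.37 ± 0.397 in DKD_Vehicle and 4.08 ± 0.154 in NC. Ocrl to Inpp5b, the related phosphatase that in mice can stand in for Ocrl, was 0.107 ± 0.0124 in DKD_shRNA, 0.104 ± 0.0256 in DKD_Vehicle and 0.0974 ± 0.0104 in NC.

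**Figure D3:**
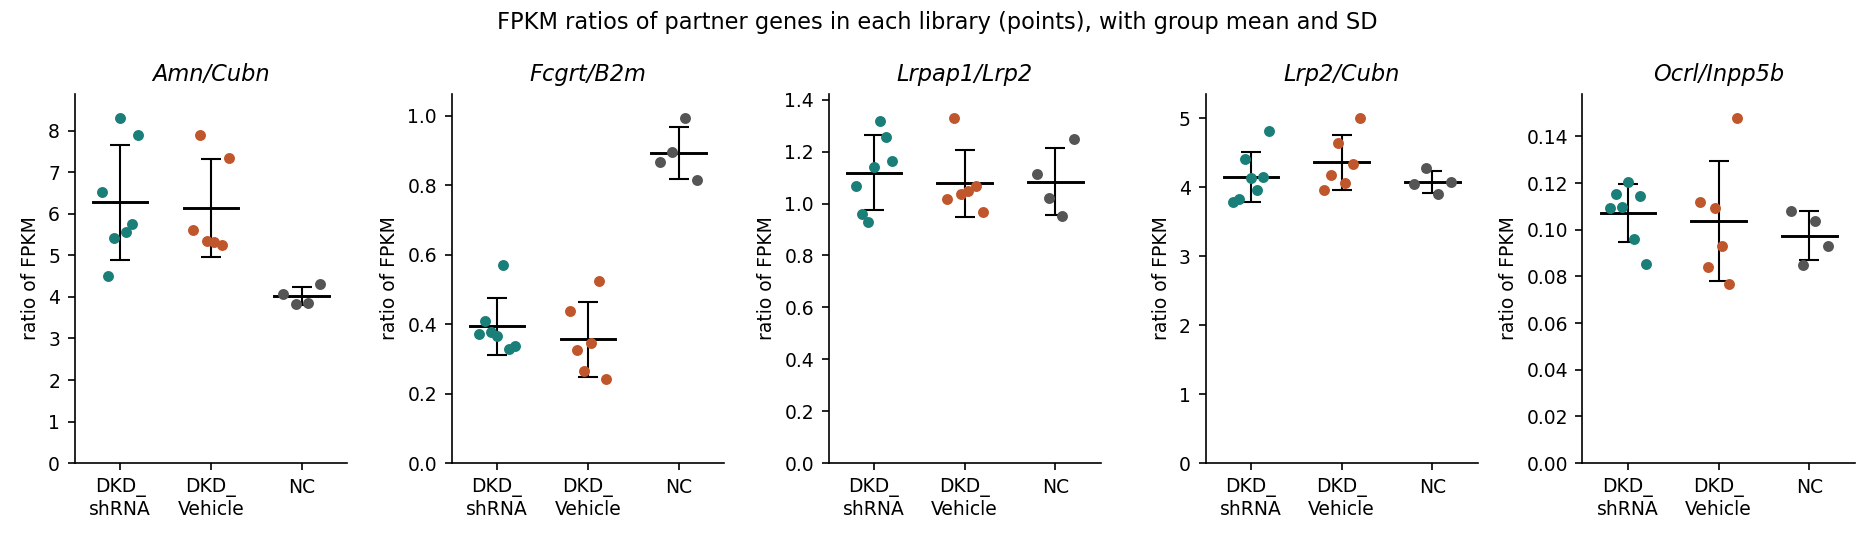
FPKM ratios of 5 partner pairs in each library (points), with group mean (line) and SD (bar), on linear axes from 0. Amn to Cubn is at least 4.51 in DKD libraries and at most 4.31 in NC, and Fcgrt to B2m is at most 0.570 in DKD libraries and at least 0.815 in NC.

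Since the genes act in the proximal tubule, each was also set against the mean log2(FPKM + 1) of 21 other proximal tubule markers. That mean was 7.14 ± 0.136 in DKD_shRNA, 7.01 ± 0.123 in DKD_Vehicle and 7.47 ± 0.150 in NC. Between DKD_Vehicle and NC it differed by -0.46 (exact permutation p = 0.00476). Of the 21 markers 8 fell and 0 rose there, against 3.91% of all tested genes that passed lower. Other tubule markers fell too, 6 of 9 tested for intercalated and 4 of 7 for principal cells. So did 3 of 9 for the thick ascending limb and 2 of 7 for the distal convoluted tubule, with 0 rising. The summed principal cell markers were nonetheless highest in DKD_Vehicle 20, at 1029 FPKM. Relative to the proximal tubule marker mean, Cubn, Lrp2 and Lrpap1 differed between DKD_Vehicle and NC by 0.017, 0.098 and 0.091, none of which passed (adjusted exact permutation p of 0.633 to 0.963 over 24 tests). Amn, Fcgrt, Clcn5 and Dab2 were higher relative to the markers by 0.59, 0.46, 0.34 and 0.32, each with an adjusted exact permutation p of 0.0242. Their own log2 fold changes were 0.13, -0.0033, -0.12 and -0.14, none of which passed, so these differences include the lower marker mean. In DKD_shRNA against NC, Amn, Fcgrt and Clcn5 were higher by 0.63, 0.38 and 0.34 (adjusted exact permutation p of 0.0242, 0.0242 and 0.0416). The marker mean differed by -0.33 there, and the genes' own log2 fold changes were 0.30, 0.052 and 0.0030, none of which passed.

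Those relative calls depended on how the markers were summarised. With the median of the markers in place of the mean, the differences between DKD_Vehicle and NC were 0.44 for Amn, 0.31 for Fcgrt, 0.20 for Clcn5 and 0.17 for Dab2, and none passed (adjusted exact permutation p of 0.630 to 0.854). Those in DKD_shRNA against NC did not pass with the median either, at 0.59 for Amn, 0.34 for Fcgrt and 0.29 for Clcn5. With the mean and each library left out, the differences of the 4 genes in DKD_Vehicle against NC stayed between 0.29 and 0.62, and those of the 3 genes in DKD_shRNA against NC between 0.26 and 0.68. Without any 1 NC library the 4 genes in DKD_Vehicle against NC stayed at the smallest exact permutation p that 84 splits allow, 0.0119. In DKD_shRNA against NC, 120 splits allow 0.00833, at which Amn stayed, while Fcgrt was at 0.00833 to 0.0167. Clcn5 was above that smallest value there, at 0.0333 to 0.05, with adjusted exact permutation p-values of 0.0889 to 0.15. The adjusted exact permutation p of Clcn5 was 0.0544 without any 1 of DKD_Vehicle 1, 6, 8, 19 and 20 in DKD_Vehicle against NC. In DKD_shRNA against NC it was 0.0571 to 0.0980 without DKD_shRNA 13, 15, 31, 32, 34 or 35. Leaving out DKD_Vehicle 8 or 20, which are not in DKD_shRNA against NC, moved only the adjustment there, to 0.0544. For Fcgrt the adjusted exact permutation p was 0.0544 without DKD_Vehicle 8 or 20 in DKD_Vehicle against NC. It was 0.0571 without DKD_shRNA 13, 15, 34 or 35 in DKD_shRNA against NC. That of Dab2 was 0.0544 without DKD_Vehicle 4 in DKD_Vehicle against NC.

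The messenger lengths of the genes differ widely, with 16701 bases counted for Lrp2, 14935 for Cubn, 11452 for Clcn5, 4116 for Lrpap1 and 1843 for Amn. Among all tested genes the median log2 fold change of DKD_Vehicle against NC was 0.073 below 2000 bases and -0.055 at 10000 bases or more (977 genes). The median of the long genes minus that of the short genes, per library, averaged -0.033 ± 0.11 in DKD_shRNA, -0.028 ± 0.17 in DKD_Vehicle and 0.11 ± 0.066 in NC, and was lowest in DKD_Vehicle 4 at -0.36. No group difference in it passed an exact two-sided permutation test, with p = 0.152 for DKD_Vehicle against NC, 0.956 for DKD_shRNA against DKD_Vehicle and 0.0636 for DKD_shRNA against NC. With a smooth length trend taken from each library, an alternative added after seeing the data, Cubn had a log2 fold change of -0.37 (adjusted p = 0.0499) and Lrp2 of -0.28 (adjusted p = 0.118) in DKD_Vehicle against NC. The Amn to Cubn difference was then 0.45 for DKD_Vehicle and 0.47 for DKD_shRNA against NC, with adjusted exact permutation p-values of 0.0238 and 0.0341.

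**Figure D4:**
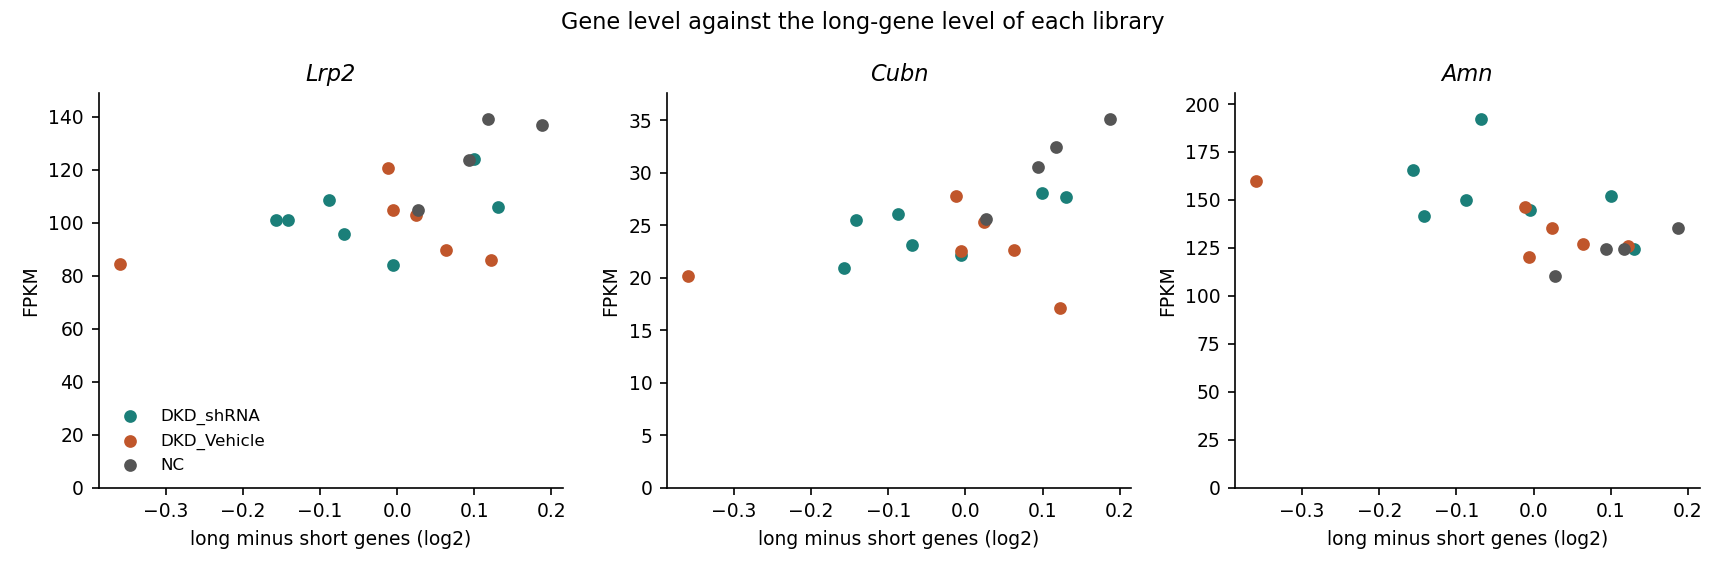
FPKM of Lrp2, Cubn and Amn against the level of long minus short genes in each library (log2), coloured by group. The NC libraries lie at 0.027 to 0.19 on the length axis, and DKD_Vehicle 4 lies at -0.36.

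The genes whose levels over the 17 libraries were most like those of each receptor were found by Pearson's r of log2(FPKM + 1) among 11369 tested genes. They share libraries, groups and depth with the receptors, so r is a description. For Lrp2 they were Eif4g3 (r = 0.950), Prkd3 (0.936), Ccser2 (0.936), Ankib1 (0.923) and Tanc2 (0.917), and for Cubn they were Xylb (0.945), Zdhhc5 (0.945), Farp2 (0.907), March8 (0.906) and Myo6 (0.904). Myo6 encodes a motor of clathrin-coated vesicles in the brush border. Lrp2 and Cubn were themselves alike (r = 0.90, and 0.83 after group means were taken out), whereas Cubn and Amn were not (-0.22, and 0.0061).

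For the other genes the closest 3 were Akt1s1, Derl2 and Nme6 for Amn (r of 0.845 to 0.881), and Mia2, Myo7b and Zdhhc9 for Dab2 (0.873 to 0.882). Ipo9, Syt14 and Clec16a were closest to Clcn5 (0.789 to 0.805), and Brd9, Luc7l2 and Rbm26 to Ocrl (0.828 to 0.871). Arl6ip1, Cyp51 and C1qtnf3 were closest to Lrpap1 (0.943 to 0.952), and Slc25a1, Sugct and Aldh2 to Fcgrt (0.884 to 0.905). Myo7b is a myosin of brush border microvilli, and Cyp51 an enzyme of cholesterol synthesis.

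The genes around the receptors were taken in 7 lists, whose counts between DKD_Vehicle and NC stand beside 7.49% of all tested genes that passed, 3.91% that passed lower and 48.5% with a log2 fold change below 0. Of 19 tested genes of clathrin and its adaptors none passed, with log2 fold changes whose median was -0.023, and of 27 genes of endosome sorting and recycling none passed, with a median of 0.069. Epn1, an adaptor of coated pits, came nearest among the adaptors at 93.4 ± 9.18 FPKM in DKD_Vehicle and 113 ± 7.61 FPKM in NC (adjusted p = 0.0672). Myo6 and the adaptor subunit Ap2a1 had log2 fold changes of -0.20 and -0.19 (adjusted p = 0.0698 and 0.0805). Snx17, which returns megalin from endosomes to the surface, had -0.16 (adjusted p = 0.173), and Rab11a, the recycling GTPase, 0.18 (adjusted p = 0.128).

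Of 20 genes of endosomal acidification 1 rose and 2 fell, beside 7.49% of all tested genes that passed. Slc9a8, a sodium-proton exchanger of endomembranes, fell to 9.55 ± 2.84 FPKM in DKD_Vehicle, against 25.0 ± 1.76 FPKM in NC (log2 fold change -1.34 ± 0.24, adjusted p = 0.00279), with no overlap of the groups. Slc9a3, the NHE3 exchanger of brush border and early endosomes, fell to 19.5 ± 3.96 FPKM in DKD_Vehicle, against 27.2 ± 1.65 FPKM in NC (adjusted p = 0.0333). Atp6v1g1, a subunit of the proton pump, rose to 159.8 ± 30.5 FPKM in DKD_Vehicle, against 113 ± 10.5 FPKM in NC (adjusted p = 0.0172). In DKD_shRNA the same genes stood at 14.1 ± 4.87, 22.1 ± 2.86 and 144 ± 8.65 FPKM, and none passed against NC.

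In the lysosome, where the cargo is broken down, 2 of 20 genes rose and none fell, near the 7.49% of all tested genes that passed. Of the 20 log2 fold changes 17 were above 0, with a median of 0.20, while 48.5% of all tested genes were below 0. Scarb2, a lysosomal membrane protein, rose to 12.8 ± 1.25 FPKM in DKD_Vehicle, against 8.34 ± 1.33 FPKM in NC (adjusted p = 0.00362), and Ctsz, a protease, rose to 119 ± 17.5 FPKM, against 94.1 ± 2.49 FPKM in NC (adjusted p = 0.0387). Lamp1, the abundant membrane protein, averaged 515 ± 44.7 FPKM in DKD_Vehicle and 433 ± 11.04 FPKM in NC (adjusted p = 0.0581). Macrophages are rich in the same proteins, and 7 of 8 tested macrophage markers were above 0 in this comparison. Lyz2 and Cd68 rose and Csf1r, the receptor for colony-stimulating factor 1, fell (log2 fold change -0.95, adjusted p = 0.00103), with summed levels of 73.1 to 176 FPKM in DKD_Vehicle and 72.0 to 96.5 FPKM in NC. Their part in the lysosomal genes was not tested.

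Of 11 tested relatives of megalin in the LDL receptor family, 1 fell between DKD_Vehicle and NC and none rose, with a median of -0.11. That count is near the 7.49% of all tested genes that passed, 3.91% of them lower. Lrp6, a Wnt coreceptor, fell to 9.98 ± 1.04 FPKM in DKD_Vehicle, against 12.8 ± 0.824 FPKM in NC (adjusted p = 0.0240). Lrp4 and Lrp5 had log2 fold changes of -0.32 and -0.28 (adjusted p = 0.0709 and 0.128). Among 9 regulators of proximal tubule identity none passed, with 8 below 0, beside 48.5% of all tested genes, and a median of -0.20.

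Among 11 ligands of megalin or cubilin that have mRNA in kidney, 3 rose in DKD_Vehicle against NC, namely B2m, Apoe and Gc, and 3 rose in DKD_shRNA against NC, namely B2m, Ttr and Apoe. Of all tested genes 7.49% and 2.02% passed in these comparisons. Apoe, the lipid carrier, rose to 108 ± 17.5 FPKM in DKD_shRNA and 106 ± 35.1 FPKM in DKD_Vehicle, against 54.4 ± 4.05 FPKM in NC (adjusted p = 0.0148 and 0.0136). Gc, the vitamin D-binding protein, rose to 23.4 ± 5.78 FPKM in DKD_Vehicle, against 13.6 ± 1.68 FPKM in NC (adjusted p = 0.0193). Ttr, the carrier of thyroxine and retinol-binding protein, rose to 207 ± 48.3 FPKM in DKD_shRNA, against 70.4 ± 4.51 FPKM in NC (adjusted p = 0.000831), and averaged 121 ± 45.7 FPKM in DKD_Vehicle. Most of the protein in the tubule comes from plasma, which mRNA in kidney does not measure.

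In DKD_shRNA against DKD_Vehicle 0 genes of any of these 7 lists passed, and in DKD_shRNA against NC the 3 ligands were the only genes of the lists that did. Leaving out 1 library ended some of the calls in DKD_Vehicle against NC. For Atp6v1g1 this was so without NC 37, 38 or 39 (adjusted p of 0.0552 to 0.0708), and for Gc without the same libraries (0.0527 to 0.0716). For Slc9a3 it was so without DKD_Vehicle 4 or 6 or any NC library (0.0600 to 0.108), and for Ctsz without DKD_Vehicle 1 or 6 or any NC library (0.0553 to 0.112). For Lrp6 it was so without NC 38, 39 or 41 (0.05004 to 0.0941), and also with equal FPKM sums (0.117) and with voom on the recovered reads (0.0560). Without the filter on low values Ctsz, Slc9a3 and Gc no longer passed (adjusted p of 0.0697, 0.0768 and 0.0515). With only the 2 groups in the fit Atp6v1g1, Ctsz and Slc9a3 no longer passed (0.0663, 0.0986 and 0.0703).

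**Figure D5:**
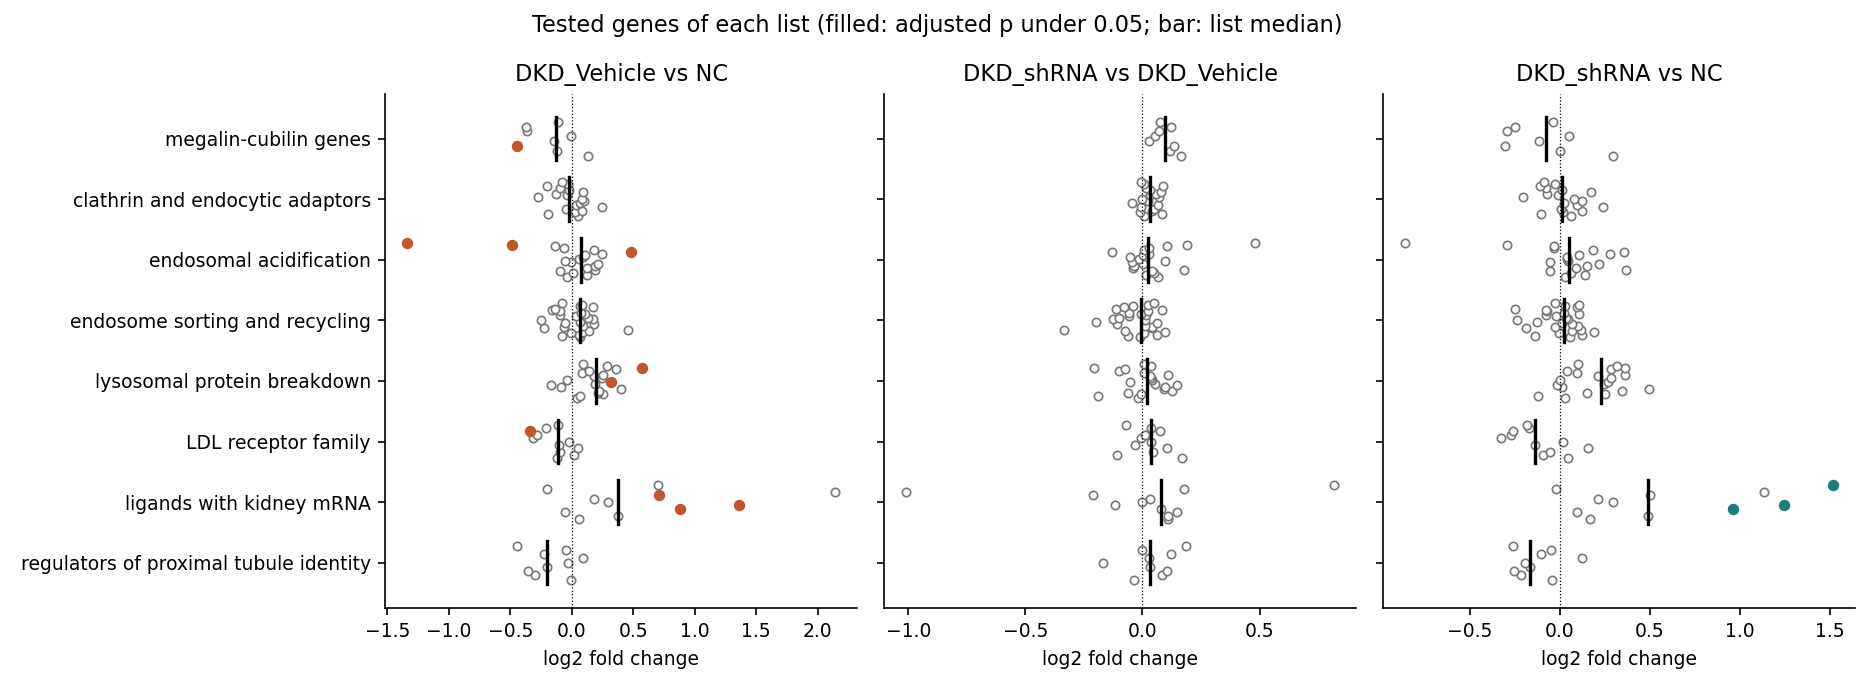
Log2 fold changes of the tested genes of each list in the 3 comparisons (points, filled where the adjusted p is under 0.05), with the list median as a bar. The filled points are Cubn, Slc9a8, Slc9a3, Atp6v1g1, Scarb2, Ctsz, Lrp6, B2m, Apoe and Gc in DKD_Vehicle against NC and B2m, Ttr and Apoe in DKD_shRNA against NC.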

How the data were processed

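Kidney RNA was prepared with Trizol and sequenced from SMARTer mRNA-Seq libraries, according to the labels' protocols. The deposited file is 1 table that holds the FPKM of each gene in each library, beside the length and position of the gene. The sources used here name no aligner, counter or annotation and do not say whether strand was used. GRCm38 and mm10 are listed per the submitters' processing notes. For all 8 genes the coordinates and counted length were those of GENCODE M21. Of the table's lines 42794 were complete and 1 was left out. FPKM times length gave whole reads for 100% of low values (up to 200 steps, within 0.05), and 31784 genes were above 0.

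Values entered as log2(FPKM + 1), on which fold changes of scarce genes come out too small. Genes with 1 FPKM in at least 4 libraries (13279) were fitted with a mean per group in all 17 libraries by limma 3.58.1 (limma-trend, R 4.3.3), adjusted by Benjamini-Hochberg over all tested genes, at a threshold of 0.05. SE and 95% intervals are those of the fit. Partner ratios and levels relative to markers were tested by exact two-sided permutation of libraries (Python 3.11.15). The fit was tested on simulated data with changes of 1.3-fold, which it called in 43% of 100 changed genes for DKD_Vehicle against NC, 58% for DKD_shRNA against DKD_Vehicle and 37% for DKD_shRNA against NC. Alternatives covered pseudocount, filter, scaling, variance model, groups fitted, each library left out, limma voom on recovered reads and, added after seeing the data, a gene length trend.

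The members, lists and markers were chosen with earlier results of these data known. Named are the 8 genes, Gcgr, B2m, per list the 3 genes with the smallest p in DKD_Vehicle against NC and the 2 in each other comparison, and the genes most alike over libraries (5 for Lrp2 and Cubn, 3 for the others, without predicted genes). Some of these are given only as counts, and 1 listed gene is not reported here.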

Additional observations from a re-analysis of the deposited data

Results flagged for a closer look

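In 39 groups of 4 to 7 libraries, 1 library far from the rest was looked for in the level of each of the 8 genes and in each partner ratio. Chance alone gives such a library in about 1 in 20 groups, and 4 were found. Clcn5 was at 12.7 FPKM in DKD_shRNA 29, against 9.33 to 10.4 FPKM in the other DKD_shRNA libraries. Ocrl was at 2.57 FPKM in NC 37, against 1.94 to 1.996 FPKM in the other NC libraries. The Lrpap1 to Lrp2 ratio was 1.33 in DKD_Vehicle 4, against 0.966 to 1.069 in the other DKD_Vehicle libraries. The Fcgrt to B2m ratio was 0.57 in DKD_shRNA 32, against 0.330 to 0.408 in the other DKD_shRNA libraries.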

How the results depend on the processing

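No paired analysis was possible because the groups share no replicate numbers. In DKD_Vehicle against NC 994 genes passed, 597 without the filter on low values and 2087 with library weights. Leaving out each library gave 456 to 1264, with 659 without DKD_Vehicle 4 and 487, 477 and 456 without NC 37, 38 and 39. In DKD_shRNA against NC 268 genes passed, 155 without the filter, 154 at a mean of 5 FPKM or more, 438 with only those groups in the fit and 1070 with library weights. Leaving out each library gave 103 to 348, with 165 and 170 without DKD_shRNA 13 and 35 and 131, 105 and 103 without NC 37, 38 and 39. In DKD_shRNA against DKD_Vehicle 1 gene passed with a pseudocount of 0.1, 1 at a mean of 5 FPKM or more and 1 with only those groups in the fit. When each library was left out 0 to 3 passed there, with 3 without DKD_shRNA 13, 2 without DKD_Vehicle 20 and 1 without NC 38 or NC 39.

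Of the 8 genes 1 passed in DKD_Vehicle against NC. The count was 0 without the filter, with only those groups in the fit and without DKD_Vehicle 20 and DKD_shRNA 31, 2 with equal FPKM sums or voom, 3 with library weights, and 0 to 3 when each library was left out. In DKD_shRNA against NC it was 3 with library weights (Amn, Lrp2 and Cubn). Cubn had adjusted p-values of 0.0739 without the filter and 0.0731 with only those groups in the fit. The cause was not tested.

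Values near 0 turned sign. Fcgrt in DKD_Vehicle against NC was at 0.060 without DKD_Vehicle 20 and DKD_shRNA 31, 0.018 with voom and -0.064 to 0.060 with each library left out. Dab2 in DKD_shRNA against DKD_Vehicle was at -0.016 with equal FPKM sums, -0.019 with library weights, -0.035 without DKD_Vehicle 20 and DKD_shRNA 31, -0.00063 with voom and -0.047 to 0.068 with each library left out. In DKD_shRNA against NC Clcn5 was at -0.046, -0.033 and -0.0040 with equal FPKM sums, library weights and voom, Fcgrt at -0.0023 with equal sums, and Ocrl at 0.014 without the length trend. Leaving out each library gave -0.066 to 0.040 for Clcn5 and -0.067 to 0.026 for Ocrl there, and -0.0082 to 0.12 for Fcgrt in DKD_shRNA against DKD_Vehicle.

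For the ratios, each library left out gave 0.53 to 0.68 for Amn to Cubn and -1.29 to -1.14 for Fcgrt to B2m in DKD_shRNA against NC, and 0.50 to 0.61 and -1.49 to -1.27 in DKD_Vehicle against NC. It gave -0.041 to 0.11 for Amn to Cubn and -0.030 to 0.13 for Ocrl to Inpp5b in DKD_shRNA against DKD_Vehicle. For Lrpap1 to Lrp2 it gave -0.015 to 0.11 in DKD_shRNA and -0.069 to 0.063 in DKD_Vehicle against NC, and for Lrp2 to Cubn -0.019 to 0.040 in DKD_shRNA against NC. Without DKD_Vehicle 20 and DKD_shRNA 31, Amn to Cubn was at 0.53 in DKD_shRNA against NC and Lrpap1 to Lrp2 at 0.023 in DKD_Vehicle against NC. Without the length trend, Lrpap1 to Lrp2 was at -0.034 in DKD_shRNA against NC.

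Relative to the median of the proximal tubule markers, DKD_Vehicle against NC gave -0.051 for Lrp2, -0.13 for Cubn, -0.059 for Lrpap1, 0.44 for Amn, 0.31 for Fcgrt, 0.20 for Clcn5 and 0.17 for Dab2. DKD_shRNA against NC gave -0.00047 for Lrp2, -0.016 for Cubn, 0.59 for Amn, 0.34 for Fcgrt and 0.29 for Clcn5. DKD_shRNA against DKD_Vehicle gave 0.051 for Lrp2, 0.0063 for Dab2, 0.098 for Clcn5, 0.053 for Ocrl, 0.10 for Lrpap1 and 0.034 for Fcgrt. Relative to the mean with a pseudocount of 0.1, Clcn5 was at 0.00040 in DKD_shRNA against DKD_Vehicle and 0.34 in DKD_shRNA against NC. Without DKD_Vehicle 20 and DKD_shRNA 31 it was at 0.33 in DKD_Vehicle against NC, 0.015 in DKD_shRNA against DKD_Vehicle and 0.34 in DKD_shRNA against NC, with Fcgrt at 0.47 in DKD_Vehicle against NC and Ocrl at 0.016 in DKD_shRNA against DKD_Vehicle. Without the length trend Dab2 and Ocrl reached 0.26 and 0.35 in DKD_shRNA against NC and passed.

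With each library left out, DKD_Vehicle against NC gave 0.55 to 0.62 for Amn, 0.32 to 0.39 for Clcn5, -0.025 to 0.061 for Cubn, 0.29 to 0.35 for Dab2 and 0.41 to 0.52 for Fcgrt relative to the mean. DKD_shRNA against NC gave 0.58 to 0.68 for Amn, 0.26 to 0.38 for Clcn5, -0.035 to 0.070 for Cubn, 0.19 to 0.25 for Dab2, 0.35 to 0.45 for Fcgrt and -0.035 to 0.068 for Lrp2. DKD_shRNA against DKD_Vehicle gave -0.0069 to 0.086 for Amn, -0.086 to 0.033 for Clcn5, -0.052 to 0.051 for Cubn, -0.049 to 0.038 for Lrpap1 and -0.12 to 0.015 for Ocrl. Depth limits Ocrl most, with 203 to 372 reads per library.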
